A study of Mus musculus with 8 samples.

Results

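The comparison described here set the A20 line stably transfected to carry IgE and cloned as clone 41 against untransfected A20 cells. It used 4 of the 8 arrays of the study, 2 of clone 41 and 2 of untransfected cells, chosen by their labels alone. A20 is a mouse B lymphoma line of mature B cell type. The other 4 arrays held 2 of a second IgE transfectant, clone 18, and 2 of a line stably transfected with IgM. All lines grew in RPMI medium that held 10% serum and beta-mercaptoethanol at 50 µM, at a density of 500000 cells/mL. From each sample, 1 µg of total RNA was labelled with Cy3 for a 1-colour Agilent mouse array. No line was given another treatment. Clone 41 is 1 clone, so features of that clone and of IgE cannot be told apart from these arrays alone. The vector and promoter of the transfected gene are not given in the sources used here. The untransfected cells carried no empty vector or selection marker that the labels name, so transfection itself is also part of the contrast.

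IgE on the membrane of a B cell is the antigen receptor of the IgE class. Its heavy chain pairs with the Cd79a and Cd79b signalling chains, and receptor signals run through kinases such as Syk and through phosphatases and ubiquitin ligases that limit them. IgE-switched B cells are known to be rare and short lived in vivo, and continuous signalling by membrane IgE has been described as one reason. The series set IgE transfectants beside untransfected and IgM-carrying cells to see which transcripts differ.

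Values below are log2 intensities after subtraction of each array's 75th percentile, so 0 is the level of a fairly bright probe and -7 lies near the bottom of the scale. Values of different genes come from different probes and are not levels per molecule. Differences are clone 41 minus untransfected on the log2 scale, with the standard error of the fit after ±. A gene was called when it differed at least 2-fold with an adjusted p under 0.05 in limma's moderated test, with Benjamini-Hochberg adjustment over all 19969 genes tested. Nothing in the labels says that a line's arrays stem from different cultures. The p-values therefore reflect how far these samples spread, which may be technical. The 2 untransfected arrays lay farther from each other than the arrays of any other line. The SD of the difference between a line's arrays was taken over the 17354 genes well above background on every array. It was 0.647 for untransfected cells, 0.37 for clone 41, 0.356 for IgM and 0.323 for clone 18. Dimmer genes are not part of these values. Of all 19969 genes tested, 2532 (12.7%) lay at least 2-fold apart between the untransfected arrays. Between 49.7% and 58.9% of spots per array were well above background.

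The transfected gene was looked for first. No probe of the array is annotated to the epsilon heavy chain by that name, and the probes that the array places at the heavy chain locus on chromosome 12 (mm9) are the nearest check of the label. The textbook order of the locus puts the epsilon constant gene between the gamma-2 genes and alpha. The probe printed first lies there and has no gene name. The next lies there too and is annotated as a predicted gene (ENSMUST00000103414). The third is annotated as expressed sequence AI324046, and the last as the constant gene of mu. Each is a 60-base oligo, shown in lower case because no base within it is singled out.
unnamed probe, chr12:114507471-114507530: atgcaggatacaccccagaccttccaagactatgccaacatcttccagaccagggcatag
predicted gene, chr12:114509504-114509563: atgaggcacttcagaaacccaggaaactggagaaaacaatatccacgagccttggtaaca
AI324046, chr12:114597942-114598001: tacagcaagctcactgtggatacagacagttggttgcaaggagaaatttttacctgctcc
mu constant, chr12:114659630-114659689: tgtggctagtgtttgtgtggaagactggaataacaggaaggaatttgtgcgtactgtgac

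The unnamed probe read -4.26 and -3.64 in untransfected cells and -2.44 and -2.87 in clone 41. This was a rise of 1.30 ± 0.26 (adjusted p = 0.0331 over 29136 probes, of which 5.52% were called), and the lines did not overlap. The same probe read -3.17 and -3.13 in clone 18 and -3.07 and -2.99 in the IgM line. The predicted gene's probe read -1.21 and -0.31 in untransfected cells and -0.13 and 0.40 in clone 41, a difference that was not called (0.90 ± 0.41, adjusted p = 0.258). It read 0.48 and 0.36 in clone 18 and 0.09 and 1.02 in the IgM line. The mu probe read 3.97 and 4.29 against 3.93 and 3.94 (adjusted p = 0.594). Of 12 probes tested along this stretch of the locus, the AI324046 probe was the other one called, at 1.39 and 2.33 in untransfected cells against 3.37 and 3.50 in clone 41 (1.57 ± 0.31, adjusted p = 0.0349). It read 4.01 and 3.96 in clone 18 and 1.40 and 1.76 in the IgM line, so it was high in both IgE lines. Heavy chain variable features, chosen after their values were seen, were high in all 3 transfected lines, and near-identical variable genes can share a probe. LOC641221 read -3.41 and -7.22 in untransfected cells, 0.97 and 1.56 in clone 41, 2.80 and 2.59 in clone 18 and 2.53 and 2.29 in the IgM line (clone 41 against untransfected 6.58, adjusted p = 0.0172). Igh-VJ558 read -3.31 and -7.06 against -0.17 and 0.68, with 1.59 and 1.68 in clone 18 and 2.27 and 2.52 in the IgM line (adjusted p = 0.0324). In both features untransfected array 2 was below background and far from array 1. These probes were not aligned to the epsilon constant gene or to the transfected sequence. Whether any of them matches was not tested, so the label was not checked directly. At the lambda light chain locus on chromosome 16, 2 features chosen after their values were seen also stood high. LOC100505358 read 1.24 and 1.09 in untransfected cells and 6.92 and 7.16 in clone 41, where it was saturated, so it was at least 58.6-fold higher. It read 7.08 and 6.97 in clone 18 and 2.25 and 4.25 in the IgM line. The lambda variable 1 transcript ENSMUST00000103746 read -1.36 and -1.25 against 2.74 and 2.83 (4.09 ± 0.37, adjusted p = 0.00162). Clone 18 read 0.22 and 0.36 for this transcript, and the IgM line -0.56 and 0.66.

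Clone 41 differed from untransfected cells in 1119 of 19969 genes (5.6%), 483 of them higher (2.42%) and 636 lower (3.18%). At an unadjusted p under 0.05 the number was 4611. The median difference over all genes was 0.04. Among called genes well above background on all 4 arrays, the 314 higher ones had a median of 2.61-fold, and 14 of them rose at least 16-fold. The 409 lower ones had a median of 3.29-fold, and 27 of them fell at least 16-fold. For another 125 called higher and 192 called lower, 1 of the lines was not well above background on both arrays, so only a lower bound of the fold could be given. For 16 called genes both lines were below background, and these were not read further. Where a called gene had other tested probes, every one of them moved the same way for all but 6 of 113 genes called higher and for 165 of 174 called lower.

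The number of calls moved with single arrays. Without untransfected array 1 the fit called 2121 genes, and without untransfected array 2 it called 1349. Without clone 41 array 1 it called 469, and without clone 41 array 2 it called 570. With either clone 18 array left out, 315 genes were called higher. The replicate number of each array is also its row on the single slide, and each line has its own slide column, so position on the slide and line cannot be told apart.

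Each large change was then checked for agreement of the untransfected arrays. A change of at least 4-fold was counted as large, and the untransfected arrays as agreeing when they lay less than 2-fold apart. Of 19969 genes, 244 were at least 4-fold higher in clone 41 (1.22%) and 451 at least 4-fold lower (2.26%). The untransfected arrays agreed for 162 of the 244 higher and for 287 of the 451 lower genes. They lay 2-fold or more apart for 81 and 163, and 1 gene in each direction lacked an array. Where they agreed, 140 of the 162 higher genes (86.4%) and 259 of the 287 lower genes (90.2%) were called. Where they did not, 44 of 81 (54.3%) and 88 of 163 (54%) were called. The spread of the untransfected arrays enters the test, so these shares describe the calls and do not support them. Of the genes whose untransfected arrays lay apart, 38 of 81 higher and 75 of 163 lower still differed at least 4-fold from each untransfected array taken singly.

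**Figure D1:**
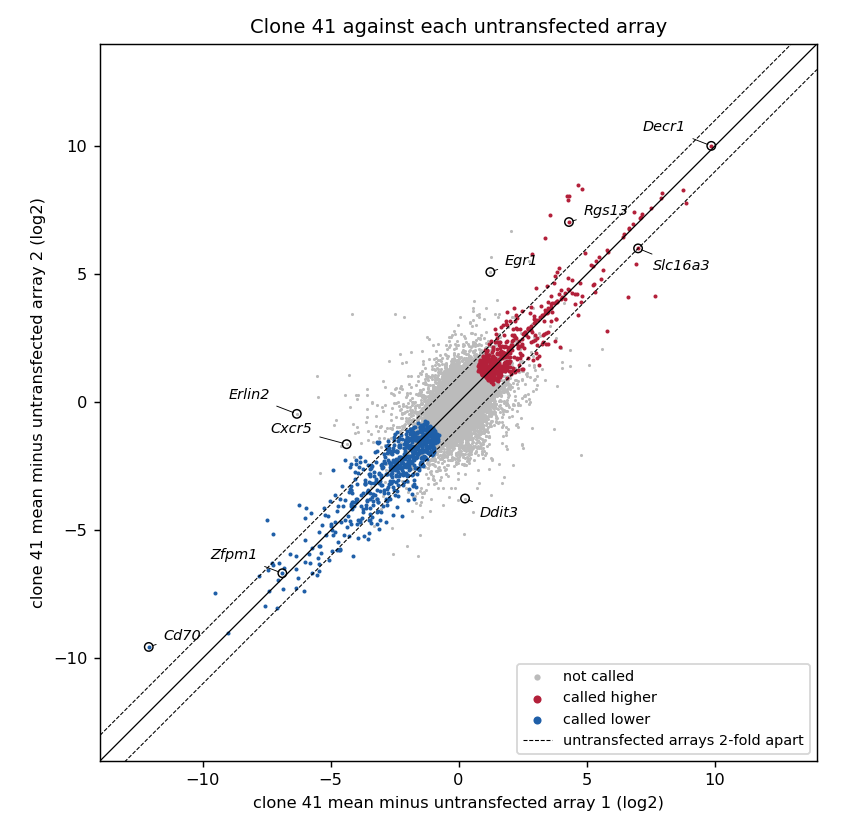
Each point is 1 of the genes tested, placed by the clone 41 mean minus untransfected array 1 (x axis, log2) and minus untransfected array 2 (y axis, log2). The solid diagonal marks equal untransfected arrays, and the dashed lines mark those 2-fold apart. Called genes lie along the diagonal far from 0, while Egr1, Ddit3, Cxcr5 and Erlin2 lie well off it and were not called. Cd70 and Rgs13 lie off it and were called.

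Of the genes that were higher in clone 41 with agreeing untransfected arrays, 12 are described first: those with a symbol, well above background on all 4 arrays, that ranked highest by the smallest of the 4 differences between single arrays. All 12 kept their call without any 1 of the 8 arrays. Slc16a3, the exporter of lactate (probe at chr11:120820023-120820082, mm9), read -2.86 and -1.87 in untransfected cells and 4.53 and 3.77 in clone 41. That was a 91.4-fold rise (6.51 ± 0.63, adjusted p = 0.00226). Its untransfected arrays lay 1.996-fold apart, at the edge of the limit for agreement, and both clone 41 arrays stood at least 5.64 log2 units above both of them.

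Cacna1h, the pore subunit of a T-type calcium channel (chr17:25511235-25511294), read -4.34 and -3.84 against 1.38 and 1.25, a 42.4-fold rise (adjusted p = 0.00022). Cacng7, of the gamma subunit family, read -3.21 and -3.42 against -0.08 and 1.00, a 13.7-fold rise. Litaf, an endosomal membrane protein induced by lipopolysaccharide in macrophages, read -1.16 and -1.0 against 3.12 and 3.46, a 20.6-fold rise (4.36 ± 0.24, adjusted p = 0.00022). In each of these genes the lines did not overlap, and the arrays within a line lay much closer together than the lines did.

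The membrane-shaping protein Ehd2 rose 21.5-fold, from -2.83 and -2.43 to 1.60 and 2.00. Basp1, a membrane-bound protein best known from growth cones, rose 16.3-fold, from -2.10 and -2.16 to 1.63 and 2.16. Spdya, an activator of cyclin-dependent kinases, rose 20.4-fold, from -3.57 and -2.71 to 0.73 and 1.68. Ng23 (now Sapcd1), Xkrx, Myadm and Tnks1bp1 rose 18.1-fold, 8.98-fold, 7.1-fold and 6.22-fold. In these 7 genes the mean of clone 18 lay nearer to clone 41 and that of the IgM line nearer to untransfected cells. The zinc finger gene Zfp358 differed from that pattern. It read -2.80 and -3.37 in untransfected cells and 0.65 and 0.95 in clone 41 (14.8-fold), and it was also high in the IgM line, at 0.24 and 0.68. Zfp358 did not pass the test between clone 41 and IgM (adjusted p = 0.483).

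Some genes came up from below background, so their rise is a lower bound. It sets the clone 41 mean against the dimmest signal that counts as well above background. Decr1, a mitochondrial reductase needed to oxidise polyunsaturated fatty acids, read -6.74 and -6.88 in untransfected cells and 3.12 and 3.15 in clone 41, at least 250.4-fold (adjusted p = 4.27e-05). Bdh1, the mitochondrial hydroxybutyrate dehydrogenase of ketone body metabolism, read -7.01 and -6.53 against 1.90 and 1.65, at least 97.4-fold. Armcx2 rose at least 56.4-fold, Phlda3, a p53 target that restrains Akt, at least 53.8-fold, the potassium channel Kcnk6 at least 42.5-fold, and Trim40 at least 35.9-fold. All 6 were below background on both untransfected arrays and well above it on both clone 41 arrays. Clone 18 read 3.04 and 3.19 for Decr1 and 1.98 and 2.06 for Bdh1, and the IgM line was below background for both.

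Of the genes lower in clone 41 with agreeing untransfected arrays, the 12 ranked highest in the same way also kept their call without any 1 array. Zfpm1, the cofactor of the GATA factors, read 2.75 and 2.54 in untransfected cells and -4.20 and -4.08 in clone 41, a 109.7-fold fall (6.78 ± 0.21 log2 units lower, adjusted p = 2.48e-05). Ptpn7, a tyrosine phosphatase of blood cells that acts on MAP kinases, read 3.16 and 2.81 against -3.20 and -3.22. Its fall was 73.1-fold (adjusted p = 3.52e-05). Cblc, a ubiquitin ligase of the Cbl family that marks activated tyrosine kinase pathways for degradation, read 4.98 and 5.58 against -0.68 and -0.31, a 54.7-fold fall (adjusted p = 8.39e-05). Sash3, a lymphocyte adaptor, fell 49.3-fold, from 3.35 and 3.85 to -2.23 and -1.82.

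The remaining genes of the 12 were the GABA receptor subunit Gabrr1, the protease inhibitor Slpi, the adhesion receptor Emr1 (now Adgre1, a macrophage antigen), the fructose transporter Slc2a5, the lipid receptor Gpr132, the guidance ligand Slit1, the Rab effector Sytl3 and Anxa10. Gabrr1 fell 111.3-fold and Slpi 99.7-fold, from 5.31 and 4.56 to -2.01 and -1.40. Anxa10 had the most distant clone 41 arrays of the 12, at 0.55 and -1.13, against 5.13 and 5.31 in untransfected cells. Gpr132 read 2.65 and 2.61 in untransfected cells and -3.35 and -2.79 in clone 41, and it was also low in the IgM line, at -3.12 and -1.68. Slpi and Emr1 took values between the others in the IgM line, at 1.66 and 2.10 and at -1.15 and 0.16. For Zfpm1, Ptpn7, Cblc, Sash3, Slc2a5 and Anxa10 the IgM arrays stood near the untransfected ones.

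Genes that fell below background in clone 41 again give bounds. Nlrp4f, of the NLR family, read 2.23 and 2.24 in untransfected cells and -6.75 and -6.81 in clone 41, at least 119-fold lower. Nedd9, a scaffold of integrin signalling, read 1.37 and 1.79 against -5.46 and -6.88, at least 75.5-fold lower (adjusted p = 0.000262). The arsenic methyltransferase As3mt, the ligand Wnt6, the exporter Slc47a2 and the scaffold Magi3 were at least 52.5-fold, 49.2-fold, 39-fold and 32.5-fold lower. In the IgM line the last 5 stood well above background, from 0.14 to 2.12, and Nlrp4f read -2.23 and -3.85.

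**Figure D2:**
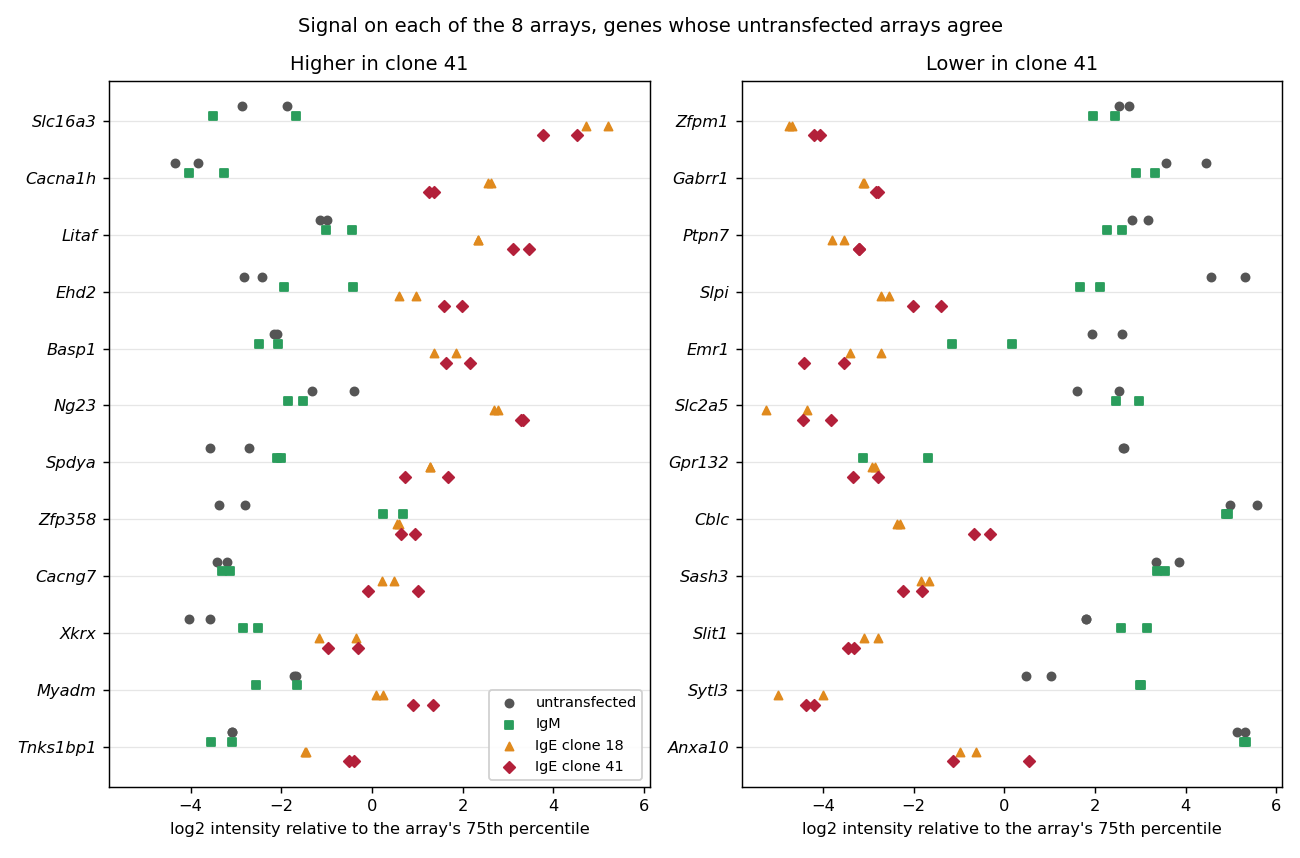
Each symbol is 1 array, placed by its log2 intensity relative to the array's 75th percentile (x axis), for the 12 genes higher (left) and 12 lower (right) in clone 41 that are described above. Untransfected arrays (circles) and clone 41 arrays (diamonds) do not overlap in any of the 24 genes. Clone 18 (triangles) lies nearer to clone 41 than to untransfected cells in all of them. The IgM line (squares) lies nearer to untransfected cells in all but Zfp358 and Gpr132.

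Of the large changes with untransfected arrays at least 2-fold apart, the 5 with the largest differences in each direction are given, among genes with a symbol that were well above background on all 4 arrays. Rgs13, a regulator of G protein signalling of germinal centre B cells, read -0.29 and -3.02 in untransfected cells and 4.11 and 3.94 in clone 41. The smallest gap between single arrays was 4.23, and the gene was called (5.68 ± 0.81, adjusted p = 0.0105). The call was lost without clone 41 array 1 (adjusted p = 0.0719) or array 2 (0.0589). The inhibitory receptor Btla read -0.20 and -1.29 against 3.32 and 3.19, a 16-fold rise (adjusted p = 0.0014), but it was as high in the IgM line, at 3.27 and 3.03.

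The other 3 raised genes of that group were not called. Egr1, a transcription factor of the immediate early response, read 1.28 on untransfected array 1 and -2.57 on array 2, against 2.98 and 2.06 in clone 41. The difference was 1.24 from array 1 alone and 5.09 from array 2 alone (adjusted p = 0.164 against both). The neuropeptide receptor Vipr1 (adjusted p = 0.229) and the growth factor Csf1 (adjusted p = 0.192) spread in clone 41 too, at -0.16 and 1.58 and at -0.68 and 1.67.

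Among lowered genes with distant untransfected arrays, 4 of 5 were called. The RNA-binding protein Zc3h12d read 2.28 and 0.77 in untransfected cells and -3.06 and -4.40 in clone 41. The inflammatory caspase Casp4 read 1.92 and 3.80 against -2.71 and -1.68. The integrin chain Itga6 read 4.97 and 3.15 against -0.88 and -1.06, a 32.8-fold fall (adjusted p = 0.00327). Thyroglobulin, Tg, read 2.54 and 4.12 against -1.43 and -0.52. The calls of Casp4 and Tg were lost without clone 41 array 1 (adjusted p = 0.051 and 0.0582). Inhbe, an activin subunit, read -1.36 and 2.01 against -3.69 and -4.15 and missed the threshold (adjusted p = 0.052).

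The largest fall of any gene on the lists belonged to Cd70, the ligand of CD27. It read 5.4 and 2.85 on the untransfected arrays, 5.83-fold apart, and -6.59 and -6.81 in clone 41, where it was below background. The fall was at least 440.7-fold, and the gene read -0.53 and -1.32 in the IgM line.

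In some genes 1 untransfected array stood at least 4-fold away from the other and from all 6 transfected arrays. Untransfected array 1 stood above in 27 genes, of which 4 were called, and below in 7, of which 0 were called. Untransfected array 2 stood above in 19 genes, of which 1 was called, and below in 19, of which 6 were called. The genes named next were chosen after their values were seen. Erlin2, a protein of lipid rafts in the endoplasmic reticulum, read 6.58 on untransfected array 1, 0.71 on array 2 and 0.37 and 0.15 in clone 41. Its mean difference, a 10.4-fold fall, rested on array 1 and was not called (adjusted p = 0.271). The cholesterol acyltransferase Soat2 read 1.97 on untransfected array 2 and -3.38 on array 1, against -2.24 and -4.07. The B cell transcription factor Spib read 2.05 on untransfected array 2, while the other 7 arrays lay between 4.71 and 5.29. Pou2f2, the octamer factor of B cells, read -0.57 on untransfected array 2 and 1.81 to 2.75 on the other 7.

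**Figure D3:**
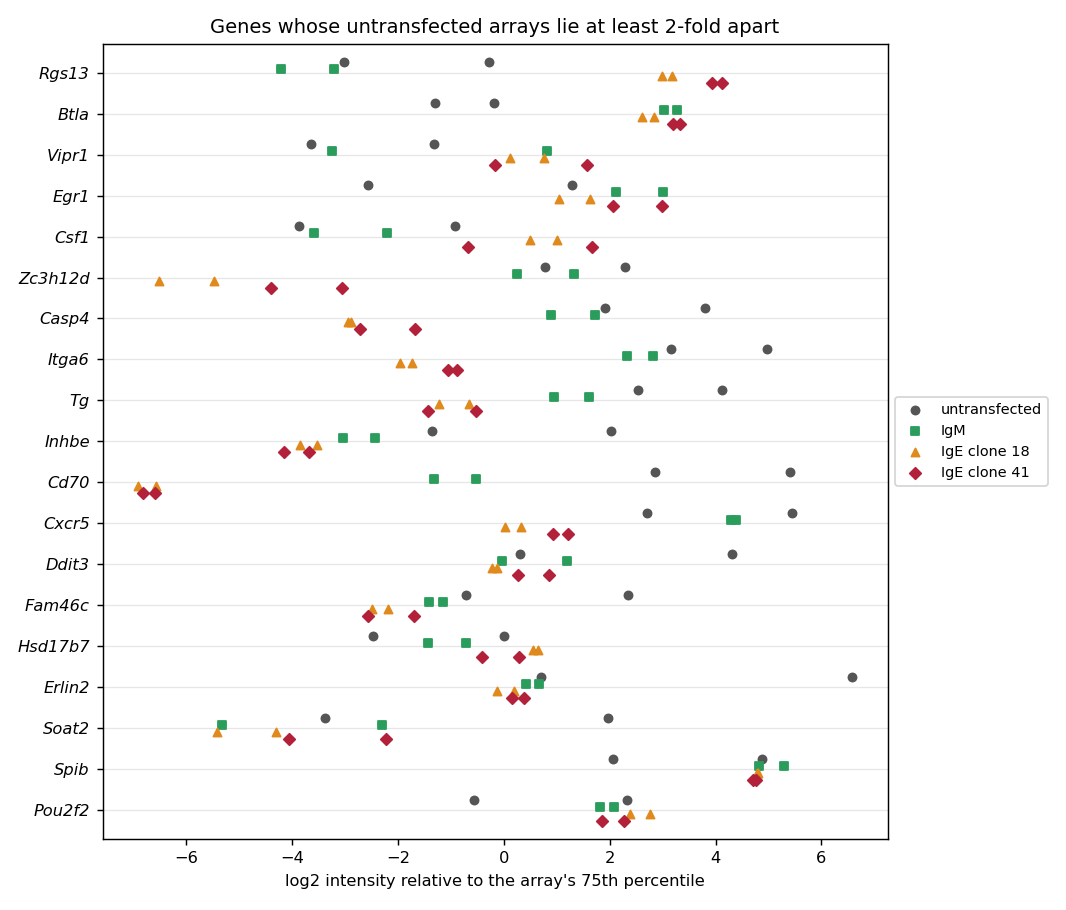
Each symbol is 1 array, placed by its log2 intensity relative to the array's 75th percentile (x axis), for genes whose untransfected arrays (circles) lie at least 2-fold apart. In Rgs13, Btla, Itga6 and Cd70 the clone 41 arrays (diamonds) lie beyond both circles by more than the circles' own distance. In Ddit3, Erlin2, Spib and Pou2f2 they lie beside 1 circle and far from the other.

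Gene lists were then counted against the shares over all genes, 2.42% higher and 3.18% lower, and each list's median difference was read beside the 0.04 of all genes. A gene can stand on more than 1 list. The lists were written with earlier results of these data known, so their counts describe the comparison.

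Among 34 measured genes of B cell identity and the germinal centre, 3 rose and 3 fell, with a median of 0.24. Rgs13, Btla and Faim3 (now Fcmr, the IgM Fc receptor) rose, and those that fell included Fcer2a and Cr2. Fcer2a, the low-affinity IgE receptor CD23, read 0.85 and -0.70 against -2.60 and -3.45, an 8.52-fold fall (adjusted p = 0.03). Its IgM values, -1.82 and -2.51, lay between. The complement receptor Cr2 read 3.78 and 3.05 against 1.94 on both arrays (adjusted p = 0.0405). The calls of Fcer2a, Cr2 and Faim3 were each lost without clone 41 array 1, with adjusted p of 0.0871, 0.18 and 0.0812, and without several other arrays.

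The transcription factors Pax5 and Bcl6 were not called. Pax5 read 0.12 and -0.69 against 0.69 and 0.32 (adjusted p = 0.174), and Bcl6 read 6.54 and 6.19 against 6.63 and 6.70 (adjusted p = 0.365). Cxcr5, the follicle homing receptor, read 5.43 and 2.70 in untransfected cells and 1.2 and 0.93 in clone 41. Its mean difference, an 8.01-fold fall, was not called (adjusted p = 0.0748), and its untransfected arrays lay 6.67-fold apart. In the list as a whole, 15 of 34 members lay at least 2-fold apart between the untransfected arrays. Against array 2 alone 6 members were higher and 4 lower, and against array 1 alone 3 were higher and 8 lower.

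The 42 measured genes of B cell receptor signalling gave 0 higher and 4 lower, with a median of -0.20. The fallen members included Ptpn7 and Cblc, described above, and the calcium release channel Itpr2 (2.12-fold, adjusted p = 0.0234). The Itpr2 call was lost without either clone 41 array (adjusted p = 0.141 and 0.111), among others. The receptor chain Cd79a read 5.22 and 5.02 against 4.75 and 4.50 (adjusted p = 0.2), and Cd79b read 6.6 and 6.23 against 6.83 and 6.79 (adjusted p = 0.281). The kinase Syk read 2.95 and 2.35 against 2.29 and 2.23, and the adaptor Blnk 6.35 and 6.39 against 5.84 and 5.94. None of these 4 was called. The Src family kinase Fyn read 2.16 and 3.24 against 1.58 and 1.5 (adjusted p = 0.1).

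Of 18 plasma cell genes, 0 rose and 4 fell, with a median of -0.16. Irf4, a transcription factor needed for plasma cells, read 3.29 and 1.98 in untransfected cells and -0.53 and -0.98 in clone 41, a 10.5-fold fall (adjusted p = 0.00637). Its IgM values, 1.05 and 0.59, lay between. Prg2, an eosinophil granule protein also found in plasma cells, read 0.84 and 0.20 against -6.67 and -3.66 (adjusted p = 0.014). Edem1, which steers misfolded glycoproteins to degradation, fell 2.74-fold (adjusted p = 0.0246), and its call was lost without either clone 41 array (adjusted p = 0.0784 and 0.135). The fourth, Cd93, was below background in both lines. Xbp1 (adjusted p = 0.706), Prdm1 (0.562) and Sdc1 (0.849) were not called. Prdm1, the repressor that drives plasma cell fate, read -2.51 and -5.02 in untransfected cells and -2.44 and -3.28 in clone 41.

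In the death machinery, 1 of 26 pro-apoptotic genes rose and 2 fell. Bcl2l11, the BH3-only killer protein Bim, read -1.02 and 0.32 against 2.05 and 2.04, a 5.27-fold rise (adjusted p = 0.023). It was lost as a call without either clone 41 array (adjusted p = 0.12 and 0.11) and without either clone 18 array (0.0551). Casp4 and the death receptor Fas fell, Fas by 2.38-fold (adjusted p = 0.0364, and 0.173 without clone 41 array 1). Of 15 anti-apoptotic genes, 2 rose and 0 fell, with a median of 0.15. Both were members of the Bcl2a1 family, whose near-identical copies can share a probe. Bcl2a1d read -3.27 and -7.10 in untransfected cells and 1.51 and 0.41 in clone 41 (adjusted p = 0.0254, lost without either clone 41 or either clone 18 array). Bcl2a1c rose at least 3.12-fold from below background. Hax1, a mitochondrial survival protein, read 6.27 and 6.62 against 6.68 and 6.57 (adjusted p = 0.599).

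Glycolysis and hypoxia genes gave 3 higher and 1 lower of 30, with a median of 0.24. Slc16a3 was the largest. The glycolytic enzyme Tpi1 rose 2.72-fold, from 5.26 and 4.51 to 6.63 and 6.03 (adjusted p = 0.0409). The glucose transporter Slc2a3 rose 2.03-fold, from 1.24 and 1.04 to 2.19 and 2.13 (adjusted p = 0.014). Both calls were lost without either clone 41 array. Of the 8 arrays left out in turn, 7 ended the call of Tpi1 and 3 that of Slc2a3. Ndrg1, a gene known for its rise in hypoxia, went the other way, from 3.04 and 3.86 to -0.63 and -1.19, a 20.5-fold fall (adjusted p = 0.00312). Ddit4 read 2.17 and 3.45 against 4.94 and 4.42 and missed the threshold (adjusted p = 0.0583), as did Ankrd37 (adjusted p = 0.163). Of 27 genes of fatty acid oxidation and ketone bodies, Decr1 and Bdh1 rose and 0 fell, while the median was -0.26. Its sign is the opposite of the 2 calls.

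The promoter of Slc16a3 is printed because the gene had the largest rise among those measured in both lines. It holds 250 bases before the start (RefSeq, GRCm38.p6, plus strand), with matches to ACGTG, the core of the hypoxia response element, in capitals.
Slc16a3, chr11:120948817-120949066: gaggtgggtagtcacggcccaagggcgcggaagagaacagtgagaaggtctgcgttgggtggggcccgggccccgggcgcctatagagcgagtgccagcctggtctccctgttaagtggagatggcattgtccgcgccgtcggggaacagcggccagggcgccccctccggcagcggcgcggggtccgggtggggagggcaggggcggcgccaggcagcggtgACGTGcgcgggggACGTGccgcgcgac

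The motif was searched on both strands and overlaps the E-box CACGTG. It was present in 18.5% of the promoters of 27025 genes and in 16 of 28 matched members of the list (57.1%). Among the members, it was found in 1 of 2 matched genes called higher and in 15 of 26 that were not called. A match describes the letters of this window.

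Type I interferon response genes moved only downwards among their calls. Of 28 measured, 0 rose and 7 fell, with a median of -0.29. Usp18, the protease that removes ISG15 and dampens the interferon receptor, read 1.5 and 1.07 in untransfected cells and -2.10 and -1.48 in clone 41, an 8.46-fold fall (adjusted p = 0.00143). Xaf1 read -0.66 and -0.13 against -2.27 and -2.51, a 3.98-fold fall (adjusted p = 0.0048). The chemokine Cxcl10 read 0.84 and 0.53 against -1.27 and -1.13 (adjusted p = 0.0205). The RNA sensor Ifih1 read -0.89 and -0.69 against -2.42 and -2.30, the nucleic acid sensor Zbp1 0.03 and -0.37 against -1.68 and -1.66, and Ifi27l2a 5.01 and 4.75 against 2.82 and 3.38. The last 3 were named after their values were seen. Ifit1 was called from values near background, at -5.45 and -4.54 against -6.92 and -6.85. It was not called in the deposited table (-0.55, adjusted p = 0.132) or with the normexp background (-0.11, adjusted p = 0.735).

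The calls of Cxcl10 and Ifit1 were lost without either clone 41 array, with adjusted p up to 0.121 and 0.145, and that of Ifi27l2a without clone 41 array 1 (0.0583). In this list 3 of 28 members lay 2-fold or more apart between the untransfected arrays, and array 1 stood lower than array 2 by a median of 0.45. Against untransfected array 2 alone 9 members fell and 0 rose, with a median of -0.50, and against array 1 alone 6 fell and 1 rose, with a median of -0.25. The signal transducer Stat2 read 2.82 and 2.80 against 2.46 and 2.80, and Isg15 read 0.98 and 1.91 against 1.52 on both arrays. Mx2 (adjusted p = 0.0602) and Rsad2 (0.0596), both near background, were not called. The IgM line did not stand low for Usp18 and Xaf1, which read 2.69 and 2.33 and 0.96 and 0.65 there.

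Promoters of the 2 fallen members that hold the core of the interferon-stimulated response element are printed with the matches in capitals (RefSeq, GRCm38.p6; Cxcl10 on the minus strand, Ifit1 on the plus strand). In Ifit1 the matches read as the reverse complement.
Cxcl10, chr5:92348890-92349139: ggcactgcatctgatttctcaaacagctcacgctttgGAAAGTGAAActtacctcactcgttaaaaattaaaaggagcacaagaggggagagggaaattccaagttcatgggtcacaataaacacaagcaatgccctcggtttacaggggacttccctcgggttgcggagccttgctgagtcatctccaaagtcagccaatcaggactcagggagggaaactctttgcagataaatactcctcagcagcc
Ifit1, chr19:34640639-34640888: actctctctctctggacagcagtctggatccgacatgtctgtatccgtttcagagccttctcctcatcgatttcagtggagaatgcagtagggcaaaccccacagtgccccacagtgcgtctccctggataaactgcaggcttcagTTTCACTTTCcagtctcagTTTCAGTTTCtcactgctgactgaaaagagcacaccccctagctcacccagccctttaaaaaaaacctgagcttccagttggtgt

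The core was searched on both strands as GAAA, 2 bases of any kind and GAAA again, and overlaps the binding motifs of the IRF factors. It was in 3.46% of promoters of all 27025 genes and in 8 of 19 matched members (42.1%). Of the 4 fallen members that matched, 2 held it, and of 15 matched members that were not called, 6 held it. The counts are too small to tell fallen from other members.

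The TNF superfamily and cytokine receptors gave 0 higher and 6 lower of 23, with a median of -0.43. Cd70 has been given above. Tnfsf9, the ligand 4-1BBL, read 4.85 and 3.15 against 0.80 and 0.47, a 10.3-fold fall (adjusted p = 0.0121), lost without either clone 41 array (0.0647 and 0.0758). The common cytokine receptor chain Il2rg fell 4.71-fold, from 2.43 and 1.78 to 0.09 and -0.34 (adjusted p = 0.00584). Socs2, an inhibitor of cytokine signals, fell 4.54-fold, and the cytokine receptor chain Csf2rb read 1.10 and 1.42 against -0.92 and -0.83 (adjusted p = 0.00103). Tnfsf13b, the B cell survival factor BAFF, read -2.78 and -2.25 against -4.91 and -3.94 (adjusted p = 0.0262), lost without clone 41 array 1 (0.106) and 5 other arrays.

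Of 25 genes of MHC and co-stimulation, 2 fell and 0 rose, with a median of 0.05. Nlrc5, the transactivator of MHC class I genes, read 3.44 and 2.94 in untransfected cells and -0.58 and 0.12 in clone 41, a 10.71-fold fall (adjusted p = 0.00126). The class I light chain B2m was saturated in untransfected cells and fell at least 2.49-fold (adjusted p = 0.0155, and 0.106 without clone 41 array 1). The class I heavy chain H2-D1 read 5.33 and 6.50 against 4.22 and 4.32 (adjusted p = 0.071). Of 18 NF-kB targets, Bcl3 and Ebi3 fell and 0 rose. Bcl3 read 1.51 and 1.54 against -1.49 and -0.67 (adjusted p = 0.0432), and Ebi3 5.32 and 4.29 against 3.15 and 2.48 (0.0291). Both calls were lost without either clone 41 array, with adjusted p up to 0.219 and 0.146.

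Adhesion, chemotaxis and G protein signalling genes moved both ways, with 4 higher and 5 lower of 31 and a median of -0.01. Gpr132, Itga6, Cd97 (now Adgre5), Itga4 and Rgs10 fell. The adhesion receptor Cd97 read 0.44 and -0.28 in untransfected cells and -3.08 and -3.06 in clone 41, an 8.9-fold fall (adjusted p = 0.00285). The integrin chain Itga4 read 1.27 and 0.79 against -1.12 and -0.50 (adjusted p = 0.0337), and Rgs10 read 1.36 and 0.90 against -0.24 and -0.30 (0.0167). Rgs13, Rgs18 and the chemokine receptors Ccr6 and Cxcr3 rose. The last 3 were below background in untransfected cells. Rgs18 read -5.83 and -6.93 there and -3.38 and -3.33 in clone 41. Ccr6 read -5.49 and -5.78 against -3.06 and -1.99, and Cxcr3 read -6.32 and -6.26 against -4.21 and -4.70. The calls of Rgs10, Rgs18, Cxcr3, Ccr6 and Itga4 were lost without either clone 41 array, with adjusted p of 0.0975, 0.0639, 0.118, 0.18 and 0.181 at most. In the deposited table neither Ccr6 (1.37, adjusted p = 0.0793) nor Cxcr3 (0.50, adjusted p = 0.243) was called, and Cxcr3 was not called with the normexp background (0.52, adjusted p = 0.129). Itga4, Rgs10, Rgs18, Ccr6 and Cxcr3 were named after their values were seen.

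In the actin cytoskeleton, 1 of 45 genes rose and 5 fell, with a median of -0.07. Tmsb10, a thymosin that binds actin monomers, read 4.29 and 4.36 in untransfected cells and 6.18 and 6.05 in clone 41, a 3.48-fold rise (adjusted p = 0.00258). It was also high in the IgM line, at 5.49 and 5.87. Nedd9, Sash3, the intermediate filament protein Vim, Cotl1 and Pfn2 fell. Vim read 1.15 and 0.26 against -1.52 and -0.84 (adjusted p = 0.0308), and Cotl1, chosen after its values were seen, read 5.01 and 4.45 against 2.95 and 3.19 (0.00795). Without clone 41 array 1 the calls of Vim, Cotl1 and Pfn2 were lost. Of the 8 arrays left out in turn, 4 ended the call of Vim, 1 that of Cotl1 and 7 that of Pfn2.

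Calcium channels and entry gave 3 higher and 4 lower of 28, with a median of 0.03. The voltage-gated subunits Cacna1h and Cacng7 rose as above, and Cacnb1 rose at least 8.02-fold, from -5.68 and -6.91 to -1.84 and -1.81 (adjusted p = 0.00166). Cacna1s, the skeletal muscle L-type pore, fell 5.46-fold, from 4.16 and 4.87 to 2.10 and 2.04 (adjusted p = 0.00258). The others that fell were Itpr2, Cacna1d and Trpm4, the last 2 named after their values were seen. The Cacna1d call was lost without clone 41 array 1 (adjusted p = 0.0629) and that of Trpm4 without either clone 41 or either clone 18 array (up to 0.14).

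The 13 Fc receptors measured gave 2 higher and 2 lower. Fcgr4, an activating IgG receptor, read -5.56 and -5.43 against -1.82 and -1.97, at least 7.65-fold higher (adjusted p = 0.000245). Faim3 rose 2.78-fold, from 4.15 and 4.03 to 5.97 and 5.16 (adjusted p = 0.0256). Fcer2a and Fcamr, a receptor for IgA and IgM, fell, Fcamr by at least 2.52-fold (adjusted p = 0.0326, and 0.176 without clone 41 array 1). Fcgr3 read 0.78 and 0.90 against 1.88 and 1.80, a difference with an adjusted p of 0.0141 that stayed just under the 2-fold limit at 1.997-fold.

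Of 37 cell cycle genes, Spdya and the CDK inhibitor Cdkn2c rose and 0 fell, with a median of 0.27. Cdkn2c read -0.03 and -0.31 in untransfected cells and 2.29 and 1.87 in clone 41 (4.76-fold, adjusted p = 0.00171), and the IgM line read 1.15 and 1.09. Of 20 clustered and linker histone genes, 3 linker histones rose and 0 fell. Hist1h1a (now H1f1) read 0.93 and -0.03 against 3.31 and 2.95, a 6.41-fold rise (adjusted p = 0.00678, and 0.0561 without clone 41 array 1). H1f0 rose at least 1.43-fold from below background, and Hist1h1b (now H1f5) rose 2.12-fold (adjusted p = 0.0292, and 0.145 without clone 41 array 1). Of 19 p53 targets, Phlda3 rose and Fas fell, and the CDK inhibitor Cdkn1a read 0.75 and -1.01 against -0.37 and -2.51 (adjusted p = 0.443).

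**Figure D4:**
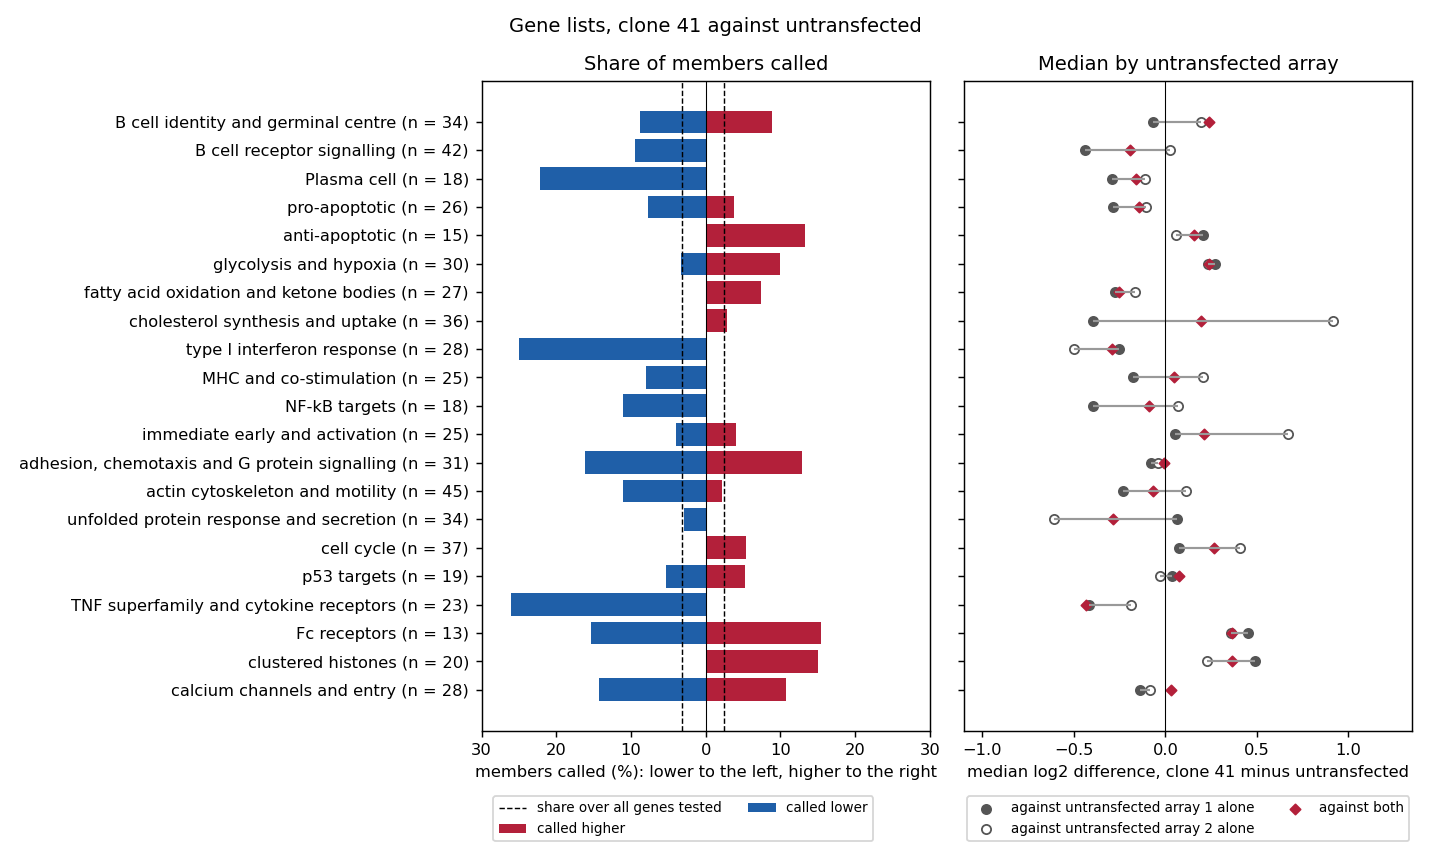
The left panel gives the percent of each list's measured members called lower (blue, to the left) and higher (red, to the right), with dashed lines at the shares over all genes, 3.18% and 2.42%. The right panel gives each list's median log2 difference against both untransfected arrays (diamonds), against array 1 alone (filled circles) and against array 2 alone (open circles). The circles lie farthest apart for cholesterol synthesis, at -0.39 and 0.91, and lie close together for glycolysis and hypoxia, at 0.27 and 0.23.

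The medians of several lists depended on which untransfected array was used, and 3 of these lists are described here. Cholesterol synthesis and uptake genes stood higher on untransfected array 1 than on array 2, by a median of 1.41, and 24 of 36 members lay at least 2-fold apart between them. The median difference of clone 41 was 0.19 against both arrays, 0.91 against array 2 alone and -0.39 against array 1 alone. Against both arrays 1 member was called, against array 2 alone 12 were called higher, and against array 1 alone 1 was higher and 2 lower. The mevalonate pathway enzyme Hmgcs1 read 6.46 on untransfected array 1, 4.46 on array 2 and 6.22 and 5.70 in clone 41. Mvd, a decarboxylase of the same pathway, read 3.59, 1.25 and 2.87 and 2.24, and the desaturase Scd1 4.97, 2.20 and 3.21 and 2.04. In these genes clone 41 lay between the untransfected arrays or beside 1 of them. The single call, Npc1l1, the sterol transporter of the gut, did not depend on this. It read -6.88 and -5.79 against 2.00 and 1.97, at least 112.8-fold higher (adjusted p = 0.00022).

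The unfolded protein response and secretion list showed the opposite order, with untransfected array 2 higher by a median of 0.54. Against both arrays 0 of 34 members rose and 1, Edem1, fell. Against array 2 alone 8 fell, and against array 1 alone 0 were called in either direction. Ddit3, the stress factor CHOP, read 0.30 on untransfected array 1, 4.31 on array 2 and 0.26 and 0.85 in clone 41 (adjusted p = 0.426). Trib3 read 3.14, 6.15 and 3.34 and 3.40, and the sensor kinase Ern1 -1.67, 1.08 and -1.28 and -1.27. In these 3 genes clone 41 lay beside untransfected array 1. The chaperone Hspa5 read 6.63 and 6.86 against 6.78 and 6.71.

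Immediate early and activation genes were spread as well, with 13 of 25 members at least 2-fold apart between the untransfected arrays. Egr1, Fos and Egr2 were higher on untransfected array 1, and Jun and Fosl2 were higher on array 2. Cd69, an early activation antigen, did not depend on the array. It read 0.93 and 0.91 against -1.81 and -2.0, a 7.09-fold fall (adjusted p = 0.00979), although its call was lost without clone 41 array 1 (0.0609) or array 2 (0.0659). Klf4 rose 2.5-fold (adjusted p = 0.0499, and up to 0.222 without 1 array). What set the untransfected arrays apart was not tested.

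Markers of other cell types were read as a check of the line. B cell markers were measured for 10 of 11 genes, and 1 was called, as lower. Their median difference was 0.44 against untransfected array 2 alone and -0.66 against array 1 alone. Their summed intensity, relative to the 75th percentile, was 293.5 and 187.6 in untransfected cells and 224.7 and 209.7 in clone 41. For T and NK cells 10 of 17 markers were measured, and the sums were 13.4 and 20.6 against 19.7 and 21.3. Klrb1c alone was called, falling at least 8.63-fold. For myeloid cells 8 of 14 were measured, with sums of 163.1 and 181.1 against 199.6 and 194.8, and Emr1 alone was called. For mast cells and basophils 1 of 10 was measured, with sums of 0.141 and 0.149 against 0.161 and 0.118. For plasma cells 6 of 7 were measured, at 246.1 and 295.7 against 249.5 and 277.3, with Irf4 alone called. For erythroid cells 4 of 7 were measured, at 11.6 and 5.32 against 7.07 and 5.68, and for stromal cells 6 of 10. The erythropoietin receptor Epor rose 5.53-fold, from -0.92 and -0.90 to 1.70 and 1.41 (adjusted p = 0.00729, and 0.0601 without clone 41 array 1). Stromal sums were 2.62 and 1.71 against 0.59 and 0.88, with Vim alone called. The part of other cells in the results was not tested.

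Clone 41 was also set against clone 18 directly, in a contrast whose difference does not use the untransfected arrays. Its standard error shares the spread of all lines, so the untransfected arrays still enter the test. The contrast found 71 genes (0.356%), 35 higher and 36 lower in clone 41. Against the IgM line clone 41 differed in 1476 genes (7.39%). Of the 1119 genes called against untransfected cells, 31 also differed between the IgE clones, 7 of those called higher and 24 of those called lower. Clone 41 lay beyond clone 18 in the direction of its call in 6 of the 7 and in 17 of the 24. That count also takes in genes whose clone 18 values lay on the other side of untransfected cells, such as Ppp2r2c. Of the named genes, Cblc and Il2rg were in this group by the rule for named genes. The others below were chosen after their values were seen.

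In several genes clone 41 stood farthest out. Zfp941, a zinc finger gene, read 0.46 and 0.83 in untransfected cells, 0.32 and 0.30 in IgM, -0.19 and -0.13 in clone 18 and -4.04 and -3.56 in clone 41. The fall was 21.7-fold against untransfected cells, and the difference from clone 18 was -3.63 ± 0.22 (adjusted p = 0.00151). The gene's other tested probe was also called lower than in untransfected cells, but by far less, at -1.21 against -4.44 log2 units. Wdr96, a WD repeat gene, read 1.29 and 1.87, 0.83 and 0.88, 0.20 and 0.61 and -3.30 and -2.50 in the same order, with a difference from clone 18 of -3.30 ± 0.33 (adjusted p = 0.0131). Luzp4, on the X chromosome, was below background in clone 41 at -6.95 and -6.79 and read -0.87 and -0.64 in untransfected cells and -1.11 and -0.99 in clone 18. It was at least 15-fold lower than in untransfected cells. The IgM line was low too, at -3.63 and -3.93, a fall of 3.03 against untransfected cells (adjusted p = 0.00119), and clone 41 lay below it (adjusted p = 0.000228). Lgr6, an R-spondin receptor, was below background in clone 41 and at least 3.4-fold lower than in untransfected cells. The small heat shock protein Hspb1 was above background in clone 41 alone, at -4.04 and -3.95.

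In other genes clone 18 stood farther out. Cblc read -0.68 and -0.31 in clone 41 and -2.38 and -2.29 in clone 18, a difference of 1.84 between the clones (adjusted p = 0.0459), while both lay far below the IgM arrays at 4.88 and 4.93. Il2rg read 0.09 and -0.34 in clone 41 and -2.19 and -2.32 in clone 18 (adjusted p = 0.0454). Lax1, an adaptor that dampens lymphocyte receptor signals, read 0.46 and 0.26 in untransfected cells, -2.82 and -2.33 in clone 41 and -5.01 and -5.46 in clone 18. Oosp1 showed the same order, at -2.35 and -2.15, -4.38 and -4.22 and -7.08 and -6.87. Its call against untransfected cells was lost without clone 41 array 1 (adjusted p = 0.0648). Ppp2r2c, a regulatory subunit of the phosphatase PP2A, went opposite ways. It read -3.51 and -2.94 in untransfected cells, 0.96 and 0.76 in clone 18, and -6.59 and -6.81, below background, in clone 41. The IgM line was below background as well, at -6.79 and -6.96 (adjusted p = 0.709 against clone 41).

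**Figure D5:**
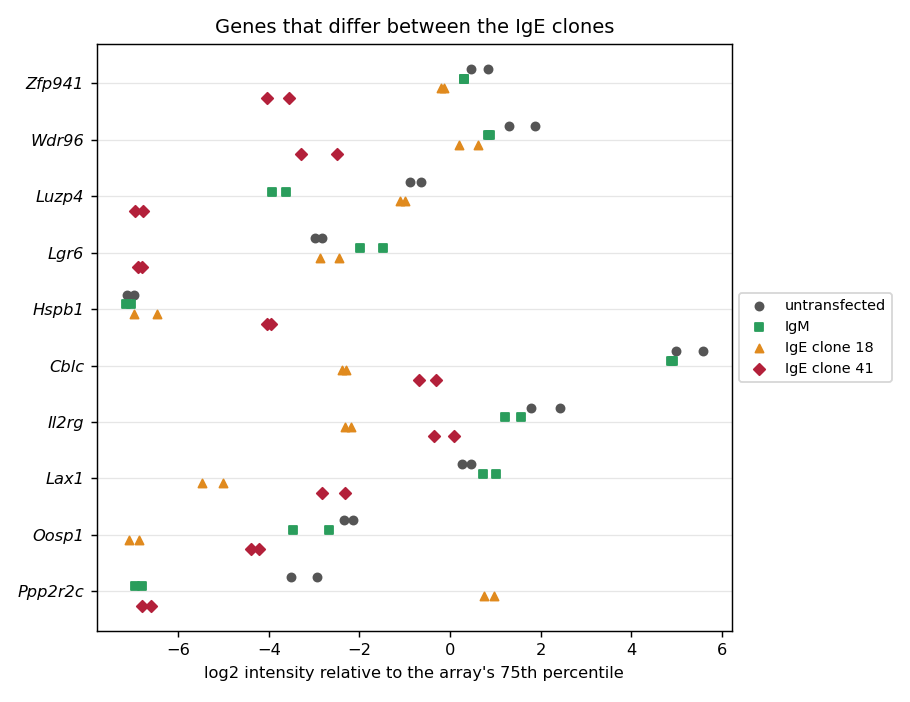
Each symbol is 1 array, placed by its log2 intensity relative to the array's 75th percentile (x axis), for 10 genes that differ both between clone 41 and untransfected cells and between the 2 IgE clones. Clone 41 (diamonds) lies apart from the 3 other lines in Zfp941, Wdr96, Luzp4, Lgr6 and Hspb1. Clone 18 (triangles) lies farther from untransfected cells (circles) in Cblc, Il2rg, Lax1 and Oosp1, and on the opposite side in Ppp2r2c.

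The share of genes called differed between chromosomes, which was described and not tested. Chromosome 1 held 59 genes called higher of 1157 tested (5.1%) and chromosome 6 held 43 of 980 (4.39%), against 2.42% over all genes. Genes called lower numbered 37 on chromosome 1 (3.2%) and 42 on chromosome 6 (4.29%), against 3.18% over all genes, and reached 4.7% on chromosome 19. In 975 windows of 20 neighbouring tested genes, the most genes called in 1 direction was 10, in the window at chr1:162823599-163528980 (mm9). It had 0 called lower, and in 18 of its 20 genes both clone 41 arrays lay above both untransfected arrays, against 27.3% over all genes. The window was picked for its calls, and the lines did not overlap in 1118 of the 1119 called genes. The 18 of 20 therefore describes the window and does not support it. Nearby on the same chromosome, the windows at chr1:163747845-166217955 and chr1:166221591-167813631 held 7 and 6 called higher and 0 lower. Medians over the 3 windows were 1.15, 0.99 and 0.88 in clone 41 and 1.21, 0.98 and 0.74 in clone 18, each against the same untransfected arrays. In the IgM line they were 0.25, 0.18 and 0.01. Gas5, a host gene of small nucleolar RNAs in the first window, was chosen after its values were seen. It read 1.70 and 0.51 against 2.93 and 3.43 (adjusted p = 0.0435). Of the 8 arrays left out in turn, 7 ended its call. Some features of these windows overlap or lie on opposite strands of 1 transcript unit, so the counts are not of independent genes. A window on chromosome 4 (chr4:3009786-3761674) had 7 called higher, with a median of 0.89 in clone 41 and 0.27 in clone 18. The windows at chr6:38016723-39537504 and chr6:124814711-125294902 also had 7 called higher and 0 lower each. Their medians were 0.64 and 0.77 in clone 41, 0.82 and 0.88 in clone 18 and 0.02 and -0.03 in the IgM line. A window at the heavy chain locus (chr12:114525600-115761907) had 6 called higher, LOC641221 among them. Its median was 0.78 in clone 41, 0.45 in clone 18 and 1.80 in the IgM line, so it was highest in the IgM line. The largest number called lower in a window was 6, at chr3:146102782-152405548 and at chr6:128729611-131235689, the second of which holds Klrb1c and Cd69.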

How the data were processed

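Total RNA of 8 samples, 2 for each of 4 lines, was measured on 1-colour Agilent arrays that shared 1 slide and 1 scan time. Per the file headers, the scanner files hold spot intensities made with Agilent Feature Extraction, which had subtracted background and corrected spatial trends, with probe positions on mm9. The authors' deposited table holds log2 values with columns of nearly equal median (5.90 to 5.92), its normalization is not given in the sources used here, and it served as an alternative.

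The processed intensity of each spot was set on the log2 scale, minus its array's 75th percentile. Control spots and outlier spots were left out. A probe was kept where both arrays of some line had it well above background (29136 of 55681), and the probe of highest mean stood for its gene. All 8 arrays entered 1 limma fit with a mean per line (limma 3.58.1, R 4.3.3), and p-values are Benjamini-Hochberg adjusted over all genes tested. All lines shared 1 estimate of the spread of each gene. The untransfected arrays spread most, so p-values against them draw on lines whose arrays lay closer together and may be too small. Tables were made with pandas 2.3.3.

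On simulated data for this comparison with 19948 genes, 56.1%, 77.6% and 88.1% of changes of 1.5, 2 and 3 log2 units were called, and 7 unchanged genes. The simulated arrays were independent, and each gene had the same spread in every line. The untransfected arrays measured here spread more than the others, so these shares may not hold for the real comparison.

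Genes were named by rule: 12 per direction with agreeing untransfected arrays by the smallest difference between single arrays; 6 by bound; 5 with untransfected arrays at least 2-fold apart; up to 4 called and 2 not called per list; and a fixed set. Others are said to be chosen after their values were seen. The members, lists and tests were chosen with earlier results of these data known. A bound sets the brighter line against the dimmest signal well above background. Current symbols and promoters come from RefSeq (GRCm38.p6). Few arrays limit the precision. Some genes are not reported here.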

Additional observations from a re-analysis of the deposited data

Results flagged for a closer look

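The 10 genes given here differed both between clone 41 and untransfected cells and between clone 41 and clone 18, so the difference from untransfected cells was not the same in both IgE clones. That difference was tested in the same limma fit. Clone 41 was higher than clone 18 by 1.84 log2 units for Cblc, 2.12 for Il2rg, 2.66 for Lax1, 2.67 for Oosp1 and 2.73 for Hspb1. It was lower for Zfp941 (-3.63), Wdr96 (-3.30), Luzp4 (-5.82), Lgr6 (-4.19) and Ppp2r2c (-7.56). For Luzp4, Lgr6 and Ppp2r2c clone 41 was below background, and for Hspb1, Oosp1 and Lax1 clone 18 was, so these sizes are fitted differences and not measured folds. With the normexp background 4 of these genes were under 2-fold from untransfected cells and not called. They were Lgr6 (-0.91), Hspb1 (0.85), Oosp1 (-0.87) and Ppp2r2c (-0.81), each in the same direction as before. Hspb1 was not called in the deposited table either (0.97). Another probe of Lgr6 was lower too (-1.55) but not called. What sets the clones apart was not tested.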

How the results depend on the processing

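The number of genes called, 1119, was 596 with no filter on dim probes (236 higher, 360 lower), 667 in the deposited table (287, 380) and 517 in a fit of only the 4 arrays compared (197, 320). With probes well above background on all 8 arrays, 419 were called lower. Leaving out 1 array gave 469 to 2121 calls, 198 to 967 higher and 271 to 1154 lower, the highest without untransfected array 1 and the lowest without clone 41 array 1. The replicate number as a block gave 504 higher and 648 lower over 8 arrays. Over the 4 arrays compared it gave 272 higher and 478 lower, 750 in all against 517 without the block. Deviations of same-numbered arrays correlated by 0.315, 0.198 and 0.166 for clone 41 with untransfected cells, clone 18 and IgM, and by 0.111, 0.0578 and -0.0234 for untransfected cells with IgM, IgM with clone 18 and untransfected cells with clone 18. Not all exceeded 0.1, so the numbers were not taken as pairs. The lines compared here had the highest value, 0.315, and a shared effect of the slide row was not tested. With the block over 8 arrays Gas5 (adjusted p = 0.0696), Pfn2 (0.0696), Ccr6 (0.061), Fcamr (0.0528) and Klf4 (0.0505) were not called.

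Large changes numbered 324 at 8-fold (216 with agreeing untransfected arrays, 208 of these called), 224 with normexp (182, 181) and 284 in the deposited table (219, 212). Cd93, below background in both lines, turned from -1.26 to 0.039 with normexp. Of 111 called genes that were chosen by the naming rule or singled out, 64 kept the call under every alternative run and 69 under all but leaving out an array. The cause of these moves was not tested. Genes near background have only bounds, and 2 arrays per line limit what can be called.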
